A study of Mus musculus with 11 samples.

Results

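Glycine tRNAs were all tRNA genes whose name in the count files gave glycine (Gly) after the last hyphen, 29 of 433 tRNA genes. By anticodon they were 14 copies of GlyGCC, 7 of GlyCCC, 7 of GlyTCC and 1 gene named GlyACC. The counts came from small RNA libraries of the frontal lobe of C57BL/6 mouse embryos, and asked what happens to tRNAs and their fragments in brains without NSUN2, a cytosine-5 RNA methyltransferase. The groups were wild-type (n = 1) and Nsun2-/- (n = 2) at embryonic day E13.5, and wild-type (n = 4) and Nsun2-/- (n = 4) at E18.5, with no treatment. The study used 2 Nsun2-/- lines, D014D11 and the MBKW strain, and the sources used here do not say which gave these samples. The replicates of a group were independent biological samples by the study's methods. The files hold tRNA genes only, so neither the brain origin nor the deletion of Nsun2 could be checked against other genes.

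A tRNA carries its amino acid on the 3′ CCA end and reads codons with its anticodon, and tRNAs of 1 amino acid that differ in anticodon are called isoacceptors. GlyGCC reads the glycine codons GGC and GGU, GlyCCC reads GGG, and GlyTCC reads GGA and can also read GGG. NSUN2 methylates cytosines at the border of the variable loop and the T stem of many tRNAs. GlyGCC is also one of the few tRNAs methylated in the anticodon loop by TRDMT1 (DNMT2), together with AspGTC and ValAAC. Loss of such marks is known to make tRNAs easier to cut by angiogenin, and 5′ parts of glycine tRNAs are among the common tRNA fragments of mammalian cells.

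The copies with most counts of GlyGCC, GlyCCC and GlyTCC, and a second GlyCCC copy, are shown as reads that the study listed for them. The reads run 5′ to 3′ with the added CCA end. They show how alike the main GlyGCC and GlyCCC copies are and how far apart the GlyCCC copies lie. No read is shown for chr1.trna1392-GlyGCC, named below, and its likeness to the main GlyGCC copy was not tested. Capitals mark the anticodon. As reads they may hold bases misread at modified positions. The reads shown for the GlyGCC copy, chr17.trna113-GlyCCC and the GlyTCC copy were listed for 9, 2 and 7 glycine genes, themselves included. They are therefore examples and do not mark 1 copy.
chr1.trna699-GlyGCC: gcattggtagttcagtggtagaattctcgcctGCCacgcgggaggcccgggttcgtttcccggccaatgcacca
chr3.trna752-GlyCCC: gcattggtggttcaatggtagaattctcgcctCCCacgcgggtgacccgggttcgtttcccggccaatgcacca
chr17.trna113-GlyCCC: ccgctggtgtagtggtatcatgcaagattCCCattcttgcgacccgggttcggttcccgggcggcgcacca
chr3.trna746-GlyTCC: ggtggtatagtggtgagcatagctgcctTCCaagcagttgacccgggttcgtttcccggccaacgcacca
The GlyGCC and chr3.trna752-GlyCCC reads differed at 5 of 74 positions, anticodon included. The read of chr17.trna113-GlyCCC, which starts 3 nt into the tRNA, differed from that of chr3.trna752-GlyCCC at 23 of 71 positions when set end to end from the CCA without gaps. The GlyTCC read starts 5 nt into the tRNA. The aligner allowed 2 mismatches and only reads with a single best place were kept, so reads of identical copies were lost and reads of near-identical copies could be placed on either. The counts of single copies are uncertain to that extent.

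Total tRNA counts lay between 4011 and 9827 per sample. At E18.5 every Nsun2-/- library (4011 to 5027 counts) was smaller than every wild-type library (5387 to 5924), and the part of this in the results was not tested. For a count of 0 a floor of 3 counts was used, which lay between 0.031% and 0.075% of all counts of a library. Counts below that floor also occurred. Among the E18.5 samples, Nsun2-/- replicates 1 and 2 agreed within sampling noise in a chi-square test of their counts over genes (p = 0.933), as did replicates 2 and 3 (p = 0.858). In that test 6 of the 12 pairs of same-group samples at E18.5 had p above 0.05. Because the methods call them independent they were kept apart, and values with replicates 1 and 2 merged are given where they bear on a result.

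Most of the glycine counts were placed on a few copies. Of the 29 genes 22 had a count in at least 1 sample and 7 had none, next to 118 genes without a count among all 433. Over the 11 samples GlyGCC held 3944 counts, GlyCCC 1401, GlyTCC 393 and GlyACC 69, of 5807 glycine counts. The GlyGCC copy chr1.trna699-GlyGCC (chr1:172975116-172975186, plus strand) held 2072 counts, 52.5% of its isoacceptor. The GlyCCC copy chr3.trna752-GlyCCC (chr3:96227956-96228026, minus strand) held 1266 counts, 90.4% of GlyCCC. The GlyTCC copy chr3.trna746-GlyTCC (chr3:96304932-96305003, minus strand) held 271 counts, 69.0% of GlyTCC. As placed, the GlyCCC counts thus lay almost entirely on 1 gene, whereas those of GlyGCC were spread over 11 copies. Which copies the RNA came from cannot be read from the placement where copies are alike. All positions are those of the count files, whose header names an annotation of mm9, and the counted intervals run 20 nt past the tRNA on each side.

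**Figure D1:**
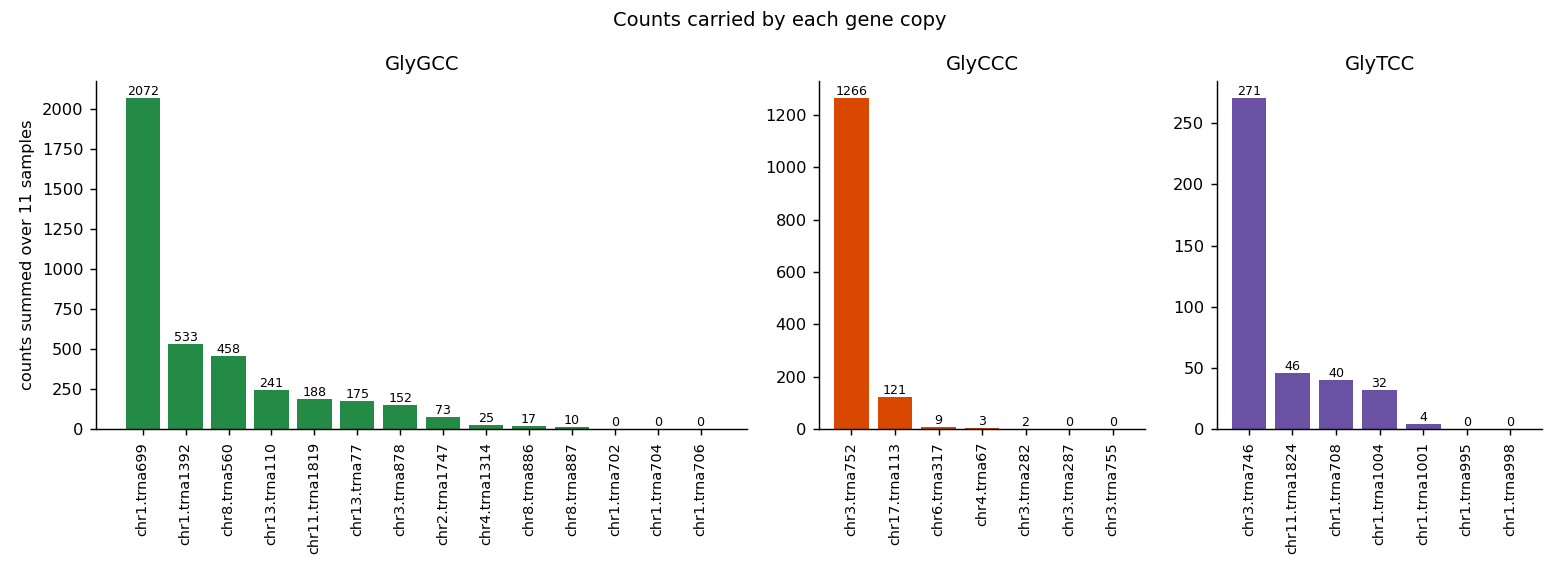
Counts summed over the 11 samples (vertical axis, linear, a scale of its own in each panel) for every copy of GlyGCC, GlyCCC and GlyTCC, with the sum printed on each bar. The first copy of each isoacceptor stands above the rest, with 2072, 1266 and 271 counts, and 3, 2 and 2 copies have none.

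The next GlyGCC copies were chr1.trna1392-GlyGCC (chr1:74863321-74863391, minus strand) with 533 counts and chr8.trna560-GlyGCC (chr8:113586461-113586531, plus strand) with 458. The copies chr13.trna110-GlyGCC, chr11.trna1819-GlyGCC, chr13.trna77-GlyGCC and chr3.trna878-GlyGCC held between 152 and 241 counts each. In GlyCCC, chr17.trna113-GlyCCC (chr17:26012033-26012103, plus strand), the copy with the unlike body, held 121 counts, and chr6.trna317-GlyCCC held 9. In GlyTCC, chr11.trna1824-GlyTCC held 46 counts and chr1.trna708-GlyTCC 40. The 11 copies with a count that were too low for any test, the last 3 named among them, had 2 to 73 counts each over the 11 samples.

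Copies with and without counts lay next to each other. With neighbours within 50 kb joined, 9 copies lay in a stretch of 64.8 kb (chr1:172968128-173032958), in which 4 GlyGCC genes on the plus strand alternated with 5 GlyTCC genes. That stretch held the copy with the most counts, chr1.trna699-GlyGCC, and 5 of the 7 copies without any. A second group of 4 GlyCCC genes over 113 kb (chr3:96115177-96228026) held chr3.trna752-GlyCCC at one end and the other 2 copies without a count. A count of 0 over all 62885 counts allows a share of up to 0.00477% of the reads that could be placed, and says nothing of reads of identical copies.

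At E13.5, GlyGCC and GlyCCC were far closer to each other than at E18.5. The counts of GlyGCC were 443 in the wild-type sample and 511 and 320 in the Nsun2-/- samples. The counts of GlyCCC were 269, and 347 and 192. The ratio of GlyGCC to GlyCCC counts was therefore 1.65 in the wild-type sample and 1.47 and 1.67 in the Nsun2-/- samples, and the genotypes overlapped. At E18.5 the GlyGCC counts were 367, 417, 435 and 423 in the wild-type and 222, 241, 310 and 255 in the Nsun2-/- samples. The GlyCCC counts were 60, 75, 72 and 57 in the wild-type and 97, 89, 72 and 71 in the Nsun2-/- samples. The ratio at E18.5 was 6.12, 5.56, 6.04 and 7.42 in the wild-type brains, and 2.29, 2.71, 4.31 and 3.59 in the Nsun2-/- brains, so that all samples of one genotype lay apart from those of the other and all 8 above the E13.5 samples. How many tRNA families or copies in all lie apart by genotype in this way was not counted, here or for the values below.

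**Figure D2:**
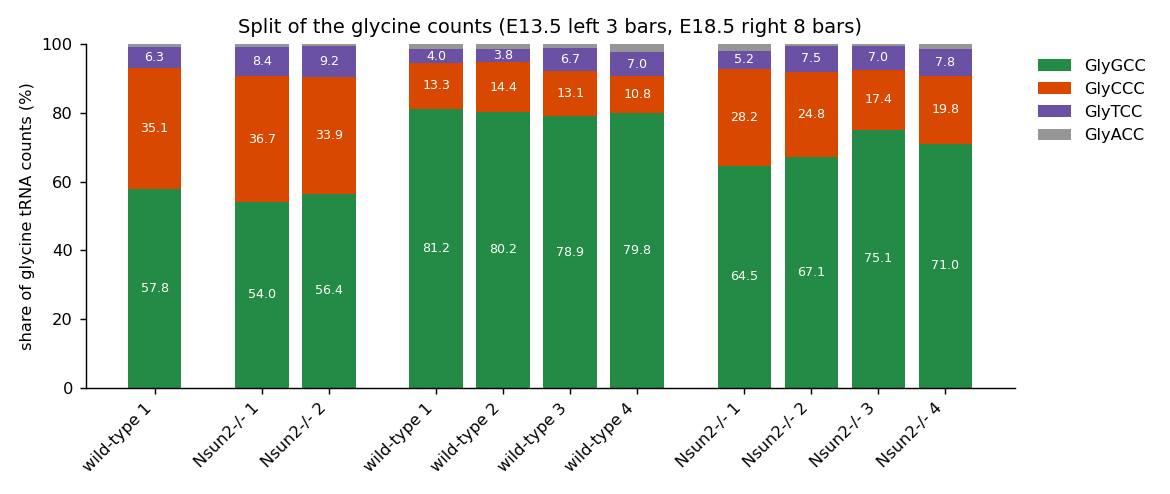
Share of the glycine tRNA counts (vertical axis, %) of GlyGCC, GlyCCC, GlyTCC and GlyACC in each of the 11 samples (1 bar each). GlyCCC takes 33.9% to 36.7% at E13.5, 10.8% to 14.4% in the E18.5 wild-type samples and 17.4% to 28.2% in the E18.5 Nsun2-/- samples.

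Between E13.5 and E18.5, GlyCCC and, less firmly, GlyTCC fell, and GlyGCC did not pass the test. GlyCCC held 3.95% of all tRNA counts in the wild-type sample (95% Wilson interval 3.51% to 4.44%) and 3.53% and 3.50% in the Nsun2-/- samples at E13.5. At E18.5 it held 1.17% ± 0.17 (SD, n = 4) in wild-type and 1.82% ± 0.31 (SD, n = 4) in Nsun2-/- brains, and no sample of one stage overlapped the other. Averaged over the genotypes, the log2 fold change from E13.5 to E18.5 was −1.41 (SE 0.10, edgeR adjusted p = 6.3e-14). Change between the stages was common, since 19 of 47 families (40.4%) passed at an adjusted p of 0.05, of which 9 (19.1%) fell. The fall of GlyCCC passed within each genotype, with a log2 fold change of −1.79 (SE 0.16, edgeR adjusted p = 2.2e-11, 14 of 47 families called, 29.8%) in wild-type and −1.03 (SE 0.13, edgeR adjusted p = 7.0e-08, 7 of 47 called, 14.9%) in Nsun2-/- brains. In whole tissue, fewer cells of a type and less RNA per cell cannot be told apart. The stages differ in nothing else that the labels give, but a batch of libraries per stage cannot be told apart from the stage.

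GlyTCC held 0.70% of all counts in the wild-type and 0.80% and 0.95% in the Nsun2-/- samples at E13.5, against 0.33% to 0.68% in the wild-type and 0.40% to 0.70% in the Nsun2-/- samples at E18.5. All 3 E13.5 shares lay above all 8 E18.5 shares, but the nearest pair differed only beyond the second decimal. The log2 fold change of GlyTCC was −0.61 (SE 0.20, edgeR adjusted p = 0.0115), which did not pass without Nsun2-/- replicate 1 of E18.5 (adjusted p = 0.0522) or with DESeq2 (0.0674). Within the genotypes it was −0.69 (SE 0.24, edgeR adjusted p = 0.0462) in Nsun2-/- and −0.54 (SE 0.31, edgeR adjusted p = 0.207) in wild-type brains. GlyGCC held 6.50% of all counts in the wild-type sample and 5.20% and 5.84% in the Nsun2-/- samples at E13.5, within the 4.99% to 7.96% of the E18.5 samples. Its log2 fold change was 0.05 (SE 0.09, edgeR adjusted p = 0.70). GlyACC, with 2 to 13 counts per sample, had a log2 fold change of 0.43 (SE 0.46, edgeR adjusted p = 0.51).

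Changes relative to all tested glycine tRNAs together do not depend on the scaling of the libraries. On that measure GlyCCC fell by 1.05 on the log2 scale between the stages (SE 0.12, edgeR adjusted p = 1.2e-09). GlyGCC rose by 0.41 (SE 0.10, edgeR adjusted p = 0.00106). Each isoacceptor is itself part of the whole it is set against, so these are not changes against the other glycine tRNAs alone. In this test of each isoacceptor against its amino acid, 13 of 38 (34.2%) passed. GlyTCC, at −0.26 (SE 0.19, edgeR adjusted p = 0.325), did not.

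**Figure D3:**
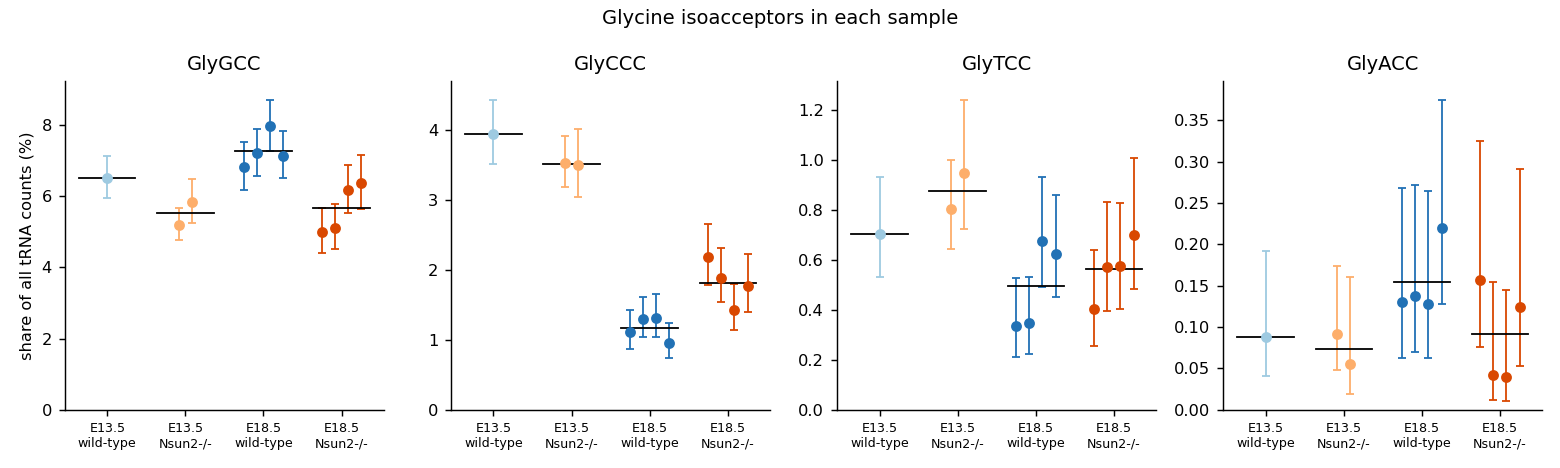
Share of all tRNA counts (vertical axis, %) of the 4 glycine isoacceptors, with 1 point per sample, its 95% Wilson interval as the bar and the group mean as the black line. GlyCCC lies at 3.50% to 3.95% at E13.5 and at 0.96% to 2.18% at E18.5, and GlyGCC is lower in all 4 Nsun2-/- samples than in all 4 wild-type samples at E18.5.

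The main copy of GlyCCC fell between the stages, and the only other GlyCCC copy tested for the stage was also lower at E18.5. That other copy did not pass the filter on the E18.5 samples. It passed only in the fit that held its higher E13.5 counts, so its values are not separate support for the fall. The main copy chr3.trna752-GlyCCC had 237 counts in the wild-type and 321 and 174 in the Nsun2-/- samples at E13.5, and 57, 64, 61 and 50 in the wild-type and 90, 83, 61 and 68 in the Nsun2-/- samples at E18.5. Its log2 fold change between the stages was −1.49 (SE 0.12, edgeR adjusted p = 9.6e-12). The copy with the unlike body, chr17.trna113-GlyCCC, had 27 counts in the wild-type and 23 and 17 in the Nsun2-/- samples at E13.5, and 2 to 11 in the 8 samples at E18.5. All E13.5 counts of this copy lay above all E18.5 counts, and its log2 fold change was −1.41 (SE 0.31, edgeR adjusted p = 0.00076). Among all tRNA genes 45 of 155 (29%) passed for the stage, 27 of them (17.4%) lower at E18.5. The share of GlyCCC counts on chr3.trna752-GlyCCC was 84.7% to 95.8% over all samples. Relative to all tested GlyCCC copies together, itself included, that copy had a log2 change of −0.01 between the stages (SE 0.10, edgeR adjusted p = 0.985). For chr17.trna113-GlyCCC the change was 0.07 (SE 0.40, edgeR adjusted p = 0.96). As chr3.trna752-GlyCCC held 90.4% of GlyCCC, its value had to lie near that of the whole. These values therefore do not decide whether both copies fell alike.

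Within GlyGCC 1 copy, chr1.trna1392-GlyGCC, moved apart from the others between the stages. It fell by 0.75 on the log2 scale (SE 0.15, edgeR adjusted p = 0.00017), while the summed isoacceptor did not pass. It made up 15.8% of the GlyGCC counts in the wild-type and 24.3% and 16.9% in the Nsun2-/- samples at E13.5, and at E18.5 8.59% ± 2.12 in wild-type and 14.2% ± 1.74 in Nsun2-/- samples (SD, n = 4 each). Its change relative to all tested GlyGCC copies together, itself included, was −0.72 (SE 0.15, edgeR adjusted p = 0.00014, 17 of 147 copies called, 11.6%), 1 of 9 glycine copies tested. That call was lost with log2 ratios in limma (adjusted p = 0.0642). No other GlyGCC copy passed for the stage, with log2 fold changes between −0.45 for chr13.trna110-GlyGCC and 0.23 for chr1.trna699-GlyGCC. The latter had an edgeR adjusted p of 0.18, and passed without Nsun2-/- replicate 2 of E13.5 (0.0175) or without wild-type replicate 1 or 4 of E18.5 (0.0347 and 0.0449). chr13.trna110-GlyGCC passed without Nsun2-/- replicate 1 of E13.5 (log2 fold change −0.72, edgeR adjusted p = 0.0169). chr3.trna746-GlyTCC, the main GlyTCC copy, had a log2 fold change of −0.58 (SE 0.24, edgeR adjusted p = 0.0676), and passed without Nsun2-/- replicate 4 (0.0227) or wild-type replicate 3 (0.0385) of E18.5.

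At E18.5, the loss of Nsun2 went with more GlyCCC and less GlyGCC. The log2 fold change of GlyCCC, Nsun2-/- against wild-type, was 0.69 (SE 0.14, edgeR adjusted p = 0.0023), and every Nsun2-/- sample, at 1.43% to 2.18% of all counts, lay above every wild-type sample, at 0.96% to 1.32%. The log2 fold change of GlyGCC was −0.31 (SE 0.09, edgeR adjusted p = 0.0236), with 4.99% to 6.36% of all counts in Nsun2-/- and 6.81% to 7.96% in wild-type samples. Of 45 families 6 passed (13.3%), 5 higher (11.1%) and 1 lower (2.22%), the latter GlyGCC itself. With Nsun2-/- replicates 1 and 2 merged the values were 0.61 for GlyCCC (edgeR adjusted p = 0.00363) and −0.32 for GlyGCC (0.0234). GlyCCC passed without any 1 of the 8 samples, whereas GlyGCC no longer passed without Nsun2-/- replicate 1 or 2 or wild-type replicate 2 or 3 (log2 fold changes −0.40 to −0.26 over the 8 fits, edgeR adjusted p up to 0.0799) or with upper-quartile scaling (0.0557). GlyTCC, at 0.50% ± 0.18 in wild-type and 0.56% ± 0.12 in Nsun2-/- samples (SD, n = 4 each), had a log2 fold change of 0.23 (SE 0.26, edgeR adjusted p = 0.68). AspGTC and ValAAC, which share the TRDMT1 mark with GlyGCC, had log2 fold changes of 0.13 (SE 0.10) and 0.16 (SE 0.11) and did not pass (edgeR adjusted p = 0.45 for both).

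All glycine tRNAs together made up 9.10% ± 0.71 of all counts in the wild-type and 8.13% ± 0.61 in the Nsun2-/- samples of E18.5 (SD, n = 4 each), which overlapped (exact two-sided permutation test, p = 0.0857). The split among them differed more. GlyCCC took 12.9% ± 1.54 of the glycine counts in wild-type and 22.5% ± 4.86 in Nsun2-/- samples (SD, n = 4 each, p = 0.0286 by exact two-sided permutation). GlyGCC took 80.0% ± 0.93 in wild-type and 69.4% ± 4.60 in Nsun2-/- samples (SD, n = 4 each, p = 0.0286 by exact two-sided permutation). With 4 samples in each group p cannot fall below 0.0286, and 6 such tests were made, for which the Benjamini-Hochberg value of both is 0.0572. GlyTCC took 5.38% ± 1.70 in wild-type and 6.89% ± 1.15 in Nsun2-/- samples (p = 0.171, exact permutation), and GlyACC 1.70% ± 0.52 and 1.12% ± 0.74 (p = 0.229, exact permutation). Tested over all amino acids, GlyCCC rose by 0.78 on the log2 scale relative to all tested glycine tRNAs together, itself included (SE 0.17, edgeR adjusted p = 0.0029). It was the only 1 of 36 isoacceptors that passed (2.78%). The change of GlyGCC, which makes up most of that whole, was −0.21 in that test (SE 0.10, edgeR adjusted p = 0.27). As log2 ratios to the sum of the other tested glycine tRNAs alone, both passed. GlyCCC changed by 0.95 (limma adjusted p = 0.00627) and GlyGCC by −0.89 (limma adjusted p = 0.0039).

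By copy, the main gene of each of the 2 isoacceptors passed at E18.5. chr1.trna699-GlyGCC had 214, 246, 269 and 246 counts in the wild-type and 111, 126, 158 and 133 in the Nsun2-/- samples, and these did not overlap as shares of all counts either. Its log2 fold change was −0.55 (SE 0.11, edgeR adjusted p = 0.0071). chr3.trna752-GlyCCC rose by 0.72 on the log2 scale (SE 0.15, edgeR adjusted p = 0.0076). They were 2 of the 9 glycine copies tested, where 10 of 106 tRNA genes (9.43%) passed. Lower values that missed the threshold were found in other GlyGCC copies. chr11.trna1819-GlyGCC held 0.34% to 0.49% of all counts in wild-type and 0.20% to 0.28% in Nsun2-/- samples (log2 fold change −0.63, SE 0.24, edgeR adjusted p = 0.12). chr13.trna77-GlyGCC held 0.276% to 0.388% and 0.125% to 0.278%, which overlapped (log2 fold change −0.59, SE 0.27, edgeR adjusted p = 0.26).

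**Figure D4:**
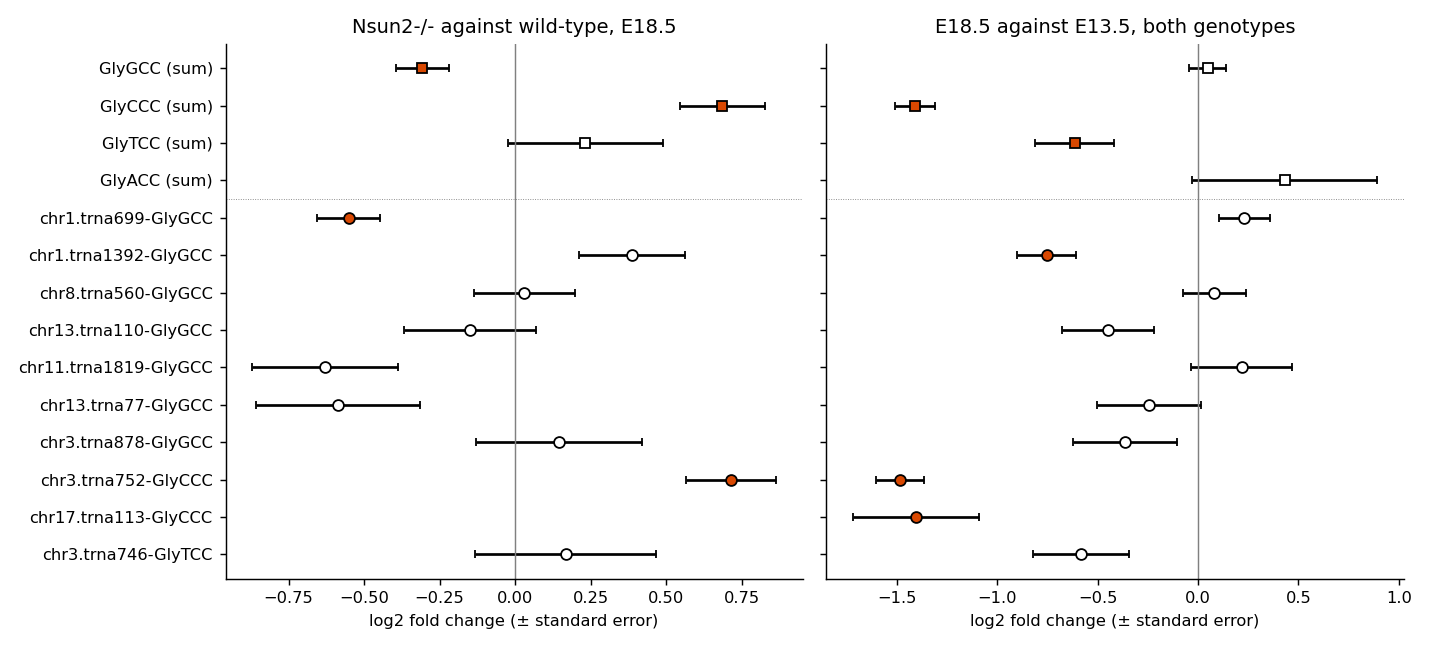
Log2 fold changes with their standard errors (horizontal axes, each with its own range) of the isoacceptor sums (squares, above the dotted line) and of the tested GlyGCC, GlyCCC and GlyTCC copies (circles), for Nsun2-/- against wild-type at E18.5 (left) and for E18.5 against E13.5 (right). Filled symbols have edgeR adjusted p below 0.05, and GlyCCC and chr3.trna752-GlyCCC are filled on both sides, higher on the left (0.69 and 0.72) and lower on the right (−1.41 and −1.49).

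Not all GlyGCC copies were lower. chr1.trna1392-GlyGCC had 36, 37, 24 and 43 counts in the wild-type and 35, 31, 39 and 40 in the Nsun2-/- samples, a log2 fold change of 0.39 (SE 0.18, edgeR adjusted p = 0.26). As a share of GlyGCC it lay at 5.52% to 10.2% in wild-type and 12.6% to 15.8% in Nsun2-/- brains. Relative to all tested GlyGCC copies together, itself included, it rose by 0.72 (SE 0.17, edgeR adjusted p = 0.0099), 1 of 2 calls among 90 copies (2.22%). This call was lost without Nsun2-/- replicate 1 or 4 or wild-type replicate 3 (edgeR adjusted p up to 0.122) and with log2 ratios in limma (0.0786). The share of chr1.trna699-GlyGCC was 58.2% to 61.8% in wild-type and 50.0% to 52.3% in Nsun2-/- brains. Its change relative to all tested GlyGCC copies, of which it is itself the largest part, was −0.22 (SE 0.09, edgeR adjusted p = 0.35). The copies chr8.trna560-GlyGCC, chr13.trna110-GlyGCC and chr3.trna878-GlyGCC had log2 fold changes of 0.03, −0.15 and 0.14, all below their standard errors, and the first turned to −0.01 with library size only and to −0.09 with upper-quartile scaling.

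**Figure D5:**
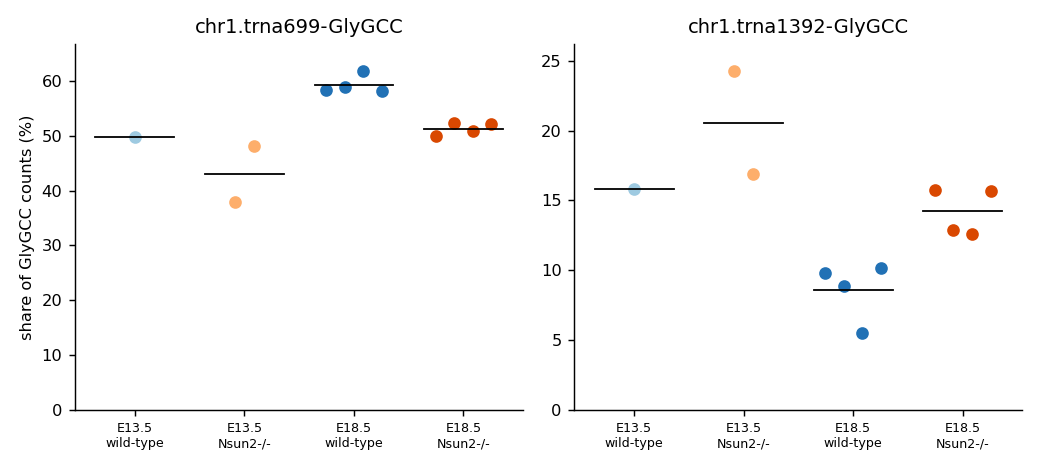
Share of the GlyGCC counts (vertical axis, %) on chr1.trna699-GlyGCC and chr1.trna1392-GlyGCC, with 1 point per sample and the group mean as the black line. At E18.5 chr1.trna699-GlyGCC lies at 58.2% to 61.8% in wild-type and 50.0% to 52.3% in Nsun2-/- samples, a difference that did not pass within GlyGCC (edgeR adjusted p = 0.35). chr1.trna1392-GlyGCC lies at 5.52% to 10.2% and 12.6% to 15.8% at E18.5, and at 15.8% to 24.3% at E13.5.

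At E13.5 no difference between the genotypes passed, with a single wild-type sample. The log2 fold changes, Nsun2-/- against wild-type, were −0.17 for GlyGCC (SE 0.16, edgeR adjusted p = 0.66), −0.09 for GlyCCC (SE 0.16, 0.89), 0.36 for GlyTCC (SE 0.30, 0.65) and −0.10 for GlyACC (SE 0.81, 0.92). None of 47 families (0%) and none of 155 genes (0%) passed by edgeR, with 7 families and 12 genes at an unadjusted p under 0.05. One of these genes was chr1.trna699-GlyGCC, with a log2 fold change of −0.47 (SE 0.22, edgeR adjusted p = 0.63), which was −0.14 without Nsun2-/- replicate 1 and −0.74 without replicate 2 of E13.5. The genotype difference of GlyCCC at E18.5 exceeded that at E13.5 by 0.75 on the log2 scale (SE 0.20, edgeR adjusted p = 0.0256), and 2 of 47 families passed this test (4.26%). That call was lost without Nsun2-/- replicate 2 of E13.5, or without Nsun2-/- replicate 1 or 2 or wild-type replicate 1, 2 or 4 of E18.5 (0.69 to 0.86, edgeR adjusted p up to 0.366), and with DESeq2 (0.213), upper-quartile scaling (0.076) or no filter (0.066). For chr3.trna752-GlyCCC alone the difference was 0.82 (SE 0.24, edgeR adjusted p = 0.0682). For GlyGCC it was −0.16 (SE 0.18, edgeR adjusted p = 0.78), so that its genotype differences at the 2 stages were not told apart.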

How the data were processed

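Per the labels and methods, RNA of 20 to 200 nt was freed of bound amino acids, made into small RNA libraries and aligned with bowtie to GRCm38/mm10. Reads with a single best place were kept, and unmapped reads were realigned after CCA ends were removed. The authors deposited raw counts per tRNA gene from featureCounts 1.4.4, unstranded, which do not separate fragments from full-length tRNAs. Counts were summed per isoacceptor and tested with edgeR 4.0.16 (R 4.3.3), a quasi-likelihood test with TMM, filterByExpr (minimum count 10) and Benjamini-Hochberg adjustment over all features. Tests at E18.5 used its 8 samples and other tests all 11 in 1 fit, so that the single E13.5 wild-type sample was assumed to vary like the other groups. Isoacceptors within an amino acid, and copies within an isoacceptor, were tested with diffSpliceDGE. Its log2 changes are relative to all tested parts of the whole together, the part in question included. The SE of a log2 fold change is its size over the root of its F statistic. Intervals cover counting error only. On simulated E18.5 counts with a log2 change of 1, 97.3% of changed families and 91.8% of changed genes were recovered, and 7.69% and 6.91% of the calls were false. In the simulation of genes most genes with a count were changed, far more than passed in the data. Its recovery and share of false calls therefore need not hold for the gene tests here. The tests within amino acids and within isoacceptors recovered 81% and 50% of relative changes of at least 0.5, so a copy that did not pass the latter may have changed. Members named are those that passed a filter and the 3 copies with most counts of each isoacceptor. Members and lists were chosen with earlier results of these data known. None of the 29 starts matched a tRNA start of RefSeq GRCm38.p6, so names and positions are the files' own. The annotation named in the count headers is of an older genome build than the alignment named in the methods. Which build the counts rest on is not known, and the part of this in the counts of single copies was not tested. No clear pairing of the samples by replicate number was found, and the number was not used in the main tests. DESeq2 1.42.0, limma 3.58.1, other scalings and filters, a replicate block, merged replicates and leaving out each sample were the alternatives. No depth beyond these counts is known.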

Additional observations from a re-analysis of the deposited data

Results flagged for a closer look

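At E18.5, wild-type replicate 4 stood apart in GlyACC (chr11.trna205-GlyACC), with 0.219% of all counts against 0.128% to 0.138% in the other 3 wild-type samples, on 13 counts. Nsun2-/- replicate 4 stood apart in chr3.trna746-GlyTCC, with 0.573% against 0.318% to 0.360%. In a test of 40 such groups of 4, chance alone sets about 1 in 20 apart. The 40 are not all distinct, since GlyACC and its only gene were both tested on the same values. The genotype difference of GlyCCC differed between the stages, by 0.753 on the log2 scale (SE 0.204, edgeR adjusted p = 0.0256). That call was lost in 6 of 10 fits that left out 1 sample, and with DESeq2, upper-quartile scaling or no filter.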

How the results depend on the processing

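The limits of depth bear most on GlyTCC, GlyACC and the minor copies, which had low counts per sample, and on E13.5 with its single wild-type sample. Scaling moved the median of all genes by −0.122 (log2, upper quartile, genotype at E18.5) and by 0.111 (library size only, stage). The GlyCCC differences between genotypes at E18.5 and between stages kept their direction and passed under every alternative run of the edgeR, DESeq2 and limma tests, in the sums and within glycine. The stage call of GlyTCC was lost with DESeq2 (−0.616, adjusted p = 0.0674), and that of GlyGCC at E18.5 with upper-quartile scaling (−0.379, adjusted p = 0.0557). The difference of the GlyCCC genotype effect between stages was lost with upper-quartile scaling (0.834), DESeq2 (0.719) and no filter (0.805), with adjusted p of 0.076, 0.213 and 0.066. In these cases the cause was not tested.

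With log2 ratios and limma, GlyGCC also passed within glycine at E18.5 (−0.885, against the sum of the other isoacceptors), while the calls of single copies within GlyGCC fell to 0 at E18.5 and to 0 between stages (for chr1.trna1392-GlyGCC, adjusted p = 0.0786 and 0.0642). DESeq2 was not run for these tests. In the same fit the stage changes of the shares of chr3.trna752-GlyCCC and chr17.trna113-GlyCCC were 0.0315 and −0.0315. The genotype difference of chr8.trna560-GlyGCC at E18.5 was −0.00567 with library size only, −0.0906 with upper-quartile scaling and −0.00941 with at least 10 counts in every sample. By single copy, the stage difference of chr1.trna699-GlyGCC passed with library size only, upper-quartile scaling and no filter (adjusted p = 0.0225, 0.0413 and 0.0238).

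Pairing by replicate number was not clear, and 4 pairs are too few to exclude it. The deviations of same-numbered samples at E18.5 correlated at 0.248, 0.0889, 0.18 and −0.127. Their mean was 0.0976, against −0.0333 for different numbers, and 4 of 8 samples correlated best with their own number. With the replicate number as a block 1 glycine copy passed at E18.5, not 2 (chr3.trna752-GlyCCC 0.711, adjusted p = 0.0748). The shares of glycine counts differed by −10.6 points for GlyGCC and 9.67 for GlyCCC in the block, with an exact p of 0.125, the smallest that 4 pairs allow.

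When each sample was left out in turn, log2 differences ran from −0.399 to −0.261 for GlyGCC at E18.5, and for the difference between stages from 0.688 to 0.856 for GlyCCC and from −0.32 to 0.0159 for GlyTCC. Stage values ran from −0.0103 to 0.097 for GlyGCC and from −0.698 to −0.533 for GlyTCC. Among copies, none of these called, the genotype values at E18.5 ran from −0.0762 to 0.129 for chr8.trna560-GlyGCC, from −0.0225 to 0.336 for chr3.trna878-GlyGCC and from −0.0275 to 0.392 for chr3.trna746-GlyTCC. Those at E13.5 ran from −0.311 to 0.744 for chr13.trna110-GlyGCC and from −0.596 to 0.0343 for chr11.trna205-GlyACC. The stage values of chr13.trna77-GlyGCC ran from −0.374 to 0.049, and as a share of GlyGCC from −0.417 to 0.141. As shares of GlyCCC, those of chr3.trna752-GlyCCC ran from −0.025 to 0.00993 and of chr17.trna113-GlyCCC from −0.132 to 0.183. Between 0 and 1 copy passed within its isoacceptor at E18.5, and 1 to 2 between stages (2 without Nsun2-/- replicate 2 of E13.5). The share of glycine counts differed by −12.5 to −8.96 points for GlyGCC and 7.79 to 11.4 for GlyCCC, with an exact p of 0.0571 without any 1 wild-type sample. Leaving out the E13.5 wild-type sample would empty its group and was not run.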
